A study of Rattus norvegicus with 18 samples.

Results

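The transforming growth factor beta (TGF-beta) and bone morphogenetic protein (BMP) signalling genes of rat cortical neuroglial cultures are described here by 9 named members. They are the ligands Tgfb1, Tgfb2, Tgfb3 and Bmp4, the receptor Tgfbr1, and the target genes Ccn1, Ccn2, Id1 and Id3. Members were taken by symbol, and each matched 1 of the 31463 rows of the deposited count tables. All 9 were among the 14398 genes that passed the filter on low counts. RNA was sequenced from primary cultures of newborn Wistar rat cortex, which hold neurons and glia, in 18 libraries that the labels divide into 6 treatment groups of 3.

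All cultures had been given cytosine arabinoside, which limits the division of glia. Those of the Control group received no glutamate. Those of the Glutamate group were exposed on day 10 in vitro to 100 µM glutamate, an excitotoxic dose, and RNA was taken 4 h later. The Memantine group had 100 µM memantine, which blocks NMDA receptors for glutamate, as the positive control. Its label does not name glutamate, although the design text places it in the glutamate model. The groups Glutamate_vesicles, Glutamate_secret and Glutamate_BPC were given material released by human glial progenitor cells on the day before glutamate. These progenitors were derived from induced pluripotent stem cells of 1 donor. Glutamate_vesicles received extracellular vesicles. The other two received a protein fraction and the total secretome, and the labels do not say which received which. The labels do not state whether the 3 libraries of a group came from separate cultures or animals. The paper says of its experiments in general that they were repeated on unrelated cultures, and its supplement names a day covariate for the RNA data, but neither ties a library or a library number to a culture or day. Here p-values therefore measure only the spread between these libraries, which may be technical.

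Ligands of the TGF-beta family bind pairs of type I and type II serine-threonine kinase receptors, which phosphorylate Smad proteins. TGF-beta itself acts mainly through the type I receptor Tgfbr1 and Smad2 and Smad3, whereas BMPs act through other type I receptors and Smad1, Smad5 and Smad9. In the brain, the ligands come from neurons as well as glia, and TGF-beta signalling is known for its part in astrocyte reactivity and microglial maintenance. BMP signalling is known for driving glial progenitors towards astrocytes. Ccn1 and Ccn2 encode matricellular proteins and respond to TGF-beta, to the YAP and TAZ coactivators and to immediate early signals. Id1 and Id3 encode inhibitors of basic helix-loop-helix factors and are classic BMP targets.

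The libraries held between 8409574 and 17206354 counts, and between 3.04% and 43.0% of these fell on ribosomal RNA rows. Control library 1 had both the smallest total and the highest ribosomal share, and the other 17 libraries had at most 26.6%. The 7 neuron markers were detected in all 18 libraries. Their summed level was 1061 to 1487 CPM, which is the read count scaled by the effective size of its library, in Control and 290 to 462 CPM in the 12 libraries given glutamate without memantine. In Memantine it was 1188 and 1545 CPM in libraries 1 and 2 and 288 CPM in library 3, which thus stood with the glutamate libraries and not with its group. Astrocyte markers summed to 2565 to 12640 CPM, those of microglia to 31.3 to 649 CPM, and those of the oligodendrocyte lineage to 121 to 815 CPM. In such bulk cultures, fewer cells of a type and less RNA per cell cannot be told apart.

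Ccn1 and Ccn2 rose and Tgfb2 fell in the cultures that had received glutamate without memantine, when their 4 groups were pooled against Control. Ccn1 was 14.0-fold higher, Ccn2 5.98-fold higher and Tgfb2 3.98-fold lower. For Tgfb2 the log2 difference of -1.99 was -1.01 without Control library 1, and the Glutamate group by itself lay within or just below the Control range. These were 3 of 9 members at an adjusted p below 0.05 (edgeR quasi-likelihood test), where 3.96% of all tested genes passed. A total of 5 members had an unadjusted p below 0.05, the others being Tgfb1 and Id1, against 16.4% of all genes. The labels number the libraries of each group 1 to 3. Within each number, the difference of log2 CPM had the same sign in 3 of 3 for each of these 5 genes. The same held for Tgfb3 and Id3, whose unadjusted p was 0.328 and 0.373 (edgeR). The 5 genes were chosen by p in these same libraries, and the numbers did not pair the libraries in this comparison. The agreement in sign is therefore no separate support. Ccn1 was the 1 member without overlap between the 12 glutamate libraries and Control, where 7.18% of all genes had none. The 3 calls depended on the Control libraries. Without Control library 1, Ccn1 alone was called, without library 2 or library 3 Tgfb2 alone.

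**Figure D1:**
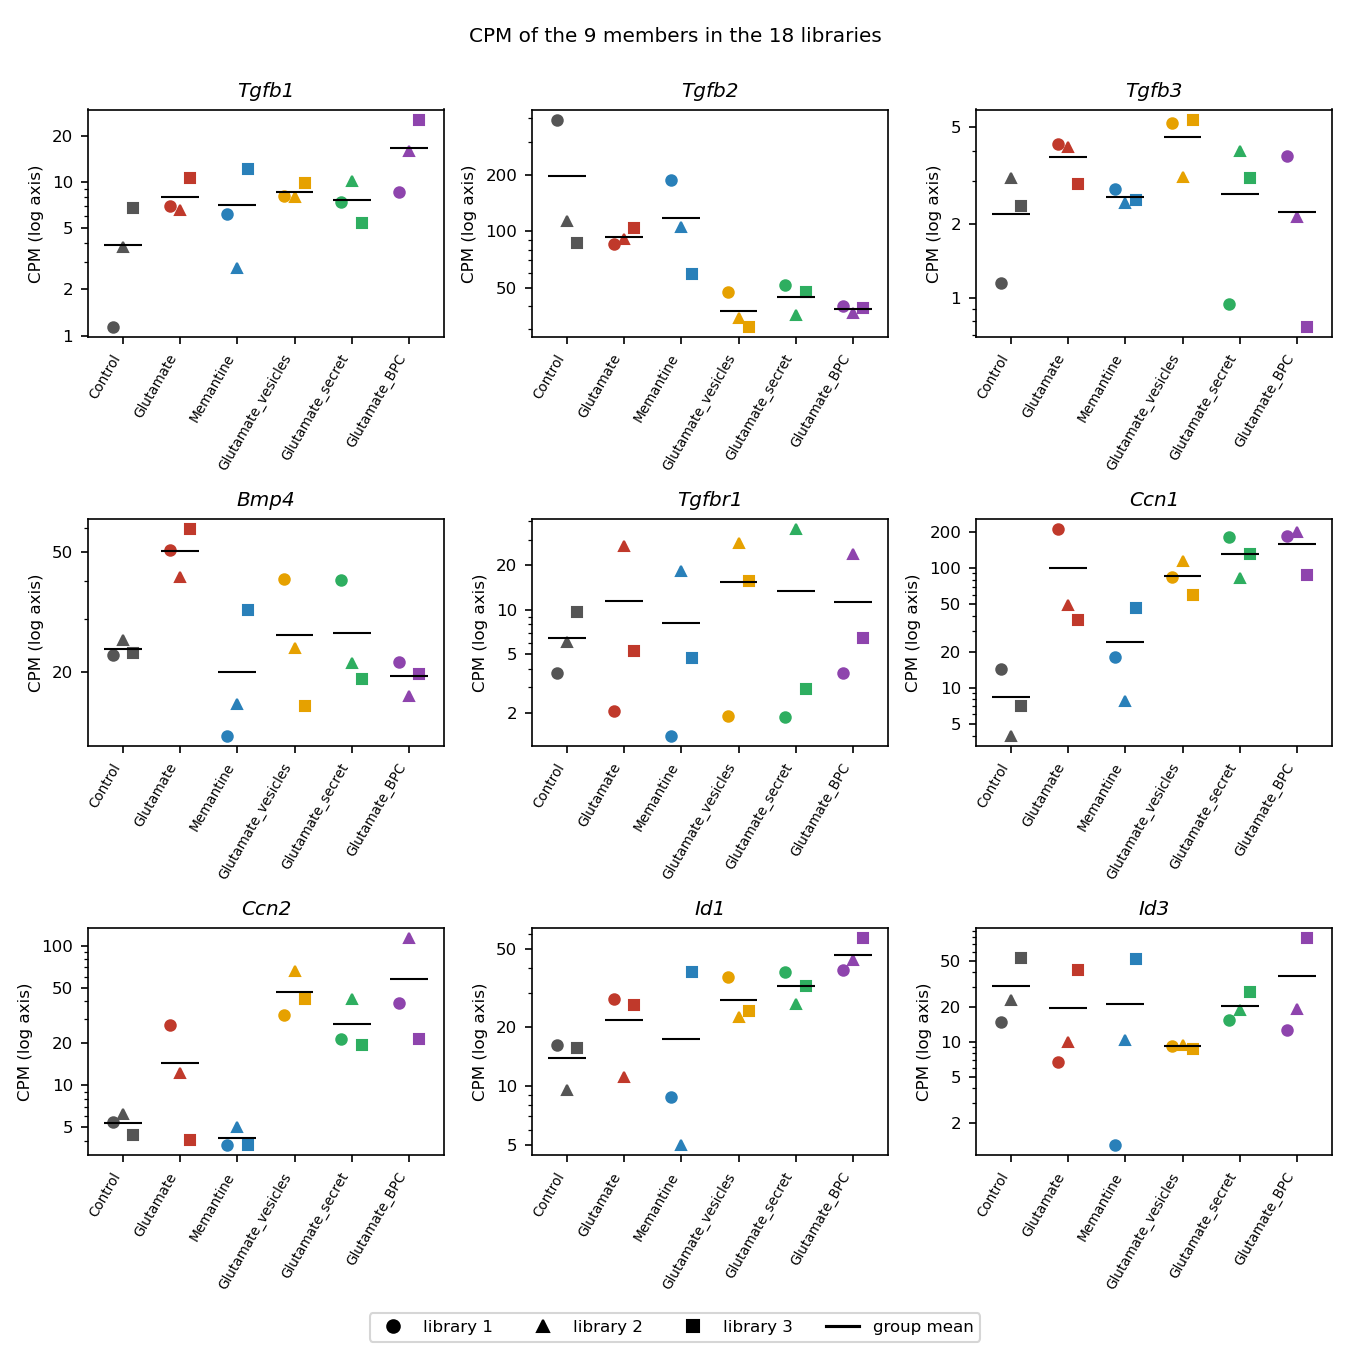
CPM of each member in the 18 libraries (log axis), by group on the horizontal axis. Symbols give the library number and black lines the mean of 3 libraries. All 12 libraries given glutamate without memantine lie above the Control libraries for Ccn1, and all 9 preparation libraries lie below the Glutamate libraries for Tgfb2 and Bmp4.

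In the single comparisons with Control, no member had an adjusted p below 0.05 in the quasi-likelihood test of edgeR, whereas DESeq2 called 1 in Glutamate (1.61% of all genes), 3 in Glutamate_vesicles (3.66%), 3 in Glutamate_secret (3.18%), 4 in Glutamate_BPC (1.82%) and 0 in Memantine (0%). Glutamate against Control gave 4 members at an unadjusted p below 0.05, where 8.11% of all genes had one, and 2 members without overlap of the groups, where 12.2% did. For Glutamate_vesicles the counts were 3 members (11.6% of genes) and 7 members without overlap (19.5%). For Glutamate_secret they were 3 members (11.8%) and 4 without overlap (15.9%), and for Glutamate_BPC 5 members (11.3%) and 6 without overlap (24.9%). Memantine against Control gave 0 members by either count, where 1.12% and 2.35% of genes passed. After adjustment, 0% of genes passed the edgeR test in these comparisons, except in Glutamate_vesicles against Control with 0.0139% (2 genes). The latter was the only comparison with Control by a single group in which same-numbered libraries deviated together for every number. With the replicate number as a block, 3 members were called there, namely Tgfb2 (adjusted p = 0.0233), Ccn1 (0.0245) and Ccn2 (0.0224), where 3.74% of all genes were called, and 5 members had an unadjusted p below 0.05, where 19.8% of genes had one (edgeR).

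Set against Glutamate, the single groups likewise gave no adjusted call among the members or among all genes (0%) in edgeR, and DESeq2 called 0 members, where its share of called genes was 0.0139% for Memantine, 0.0209% for vesicles, 0.00696% for Glutamate_BPC and 0% for Glutamate_secret. Memantine gave 3 members at an unadjusted p below 0.05 (5.08% of genes) and 2 without overlap (2.86%). Glutamate_vesicles gave 3 (1.08%) and 3 without overlap (6.27%), Glutamate_secret 2 (0.681%) and 2 without overlap (3.41%), and Glutamate_BPC 3 (1.07%) and 3 without overlap (7.13%). The 3 preparations together against Glutamate gave 3 members at an unadjusted p below 0.05 (1.38% of genes), 2 without overlap (0.84%) and 0 adjusted calls (0%). The members with an unadjusted p below 0.05 were Tgfb2, Bmp4 and Ccn2, and these comparisons share the Glutamate libraries. The numbers paired the libraries in each of them except Glutamate_vesicles. With the replicate number as a block, Memantine gave 3 members at an unadjusted p below 0.05 (8.03% of all genes) and Glutamate_secret 2 (3.24%). Glutamate_BPC then gave 4 (3.38%), with Id1 added (unadjusted p = 0.0184, edgeR), and the 3 preparations gave 3 (3.65%). The block gave 0 adjusted calls there (0%). An F test over the 6 groups called 0 members (0.00695% of genes, 1 gene) and gave an unadjusted p below 0.05 for 4 (7.75%), namely Tgfb2, Bmp4, Ccn1 and Ccn2. Among the 3 preparations themselves, the F test called 0 members and 0% of genes, with 0 members at an unadjusted p below 0.05 (0.382% of genes).

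**Figure D2:**
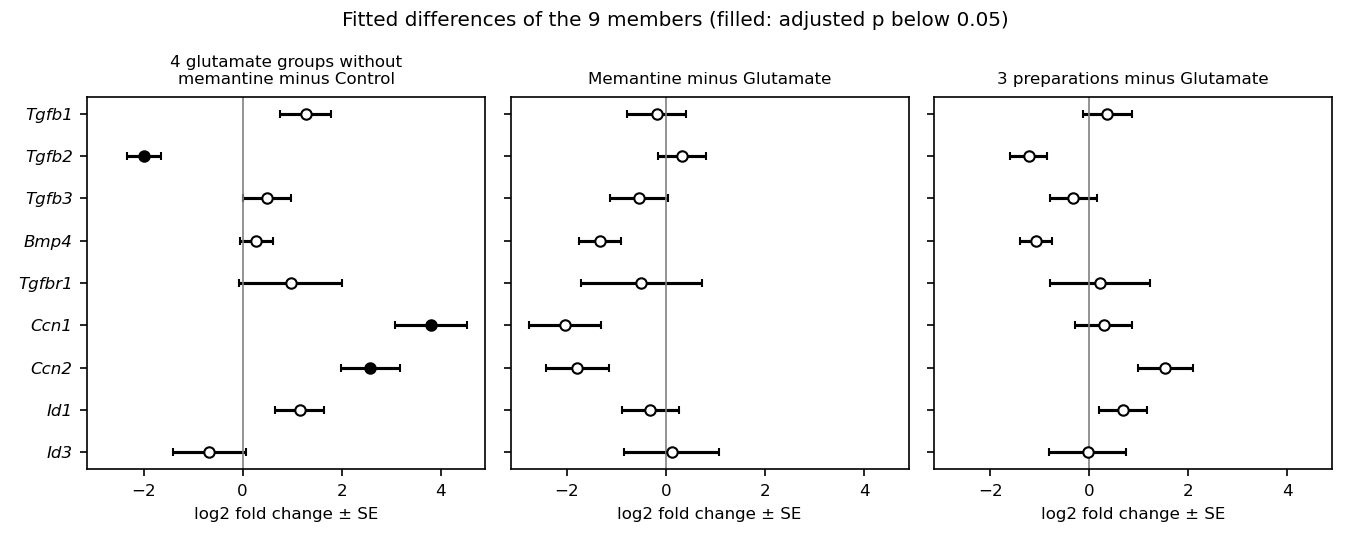
Log2 fold change with its standard error (SE, bars) of the 9 members in 3 comparisons, from edgeR. Filled points mark an adjusted p below 0.05, which only Tgfb2 (-1.99), Ccn1 (3.80) and Ccn2 (2.58) reached, all in the comparison of the 4 glutamate groups with Control.

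Tgfb2, a ligand made by neurons and glia, had its highest mean in Control and its lowest in Glutamate_vesicles. In Control it measured 393, 113 and 87.0 CPM in libraries 1, 2 and 3, and in Glutamate 85.9, 91.0 and 104 CPM. The Memantine libraries had 188, 105 and 59.4 CPM. Glutamate therefore lay within or just below the range of Control, and Control library 1 stood far above all others. The preparations were lower, with 47.4, 34.5 and 31.0 CPM in Glutamate_vesicles, 51.5, 35.8 and 47.3 CPM in Glutamate_secret, and 39.9, 36.7 and 38.8 CPM in Glutamate_BPC. All 9 preparation libraries were below the lowest Glutamate library, and 10 of the 12 libraries given glutamate without memantine were below the lowest Control library.

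Over the 4 glutamate groups, Tgfb2 fell by 1.99 on the log2 scale (SE 0.348, adjusted p = 0.00932, edgeR). Without Control library 1 the log2 difference was -1.01 (adjusted p = 0.106). Against Control, the log2 fold change was -1.07 in Glutamate (SE 0.498, adjusted p = 0.599 by edgeR), -2.39 in Glutamate_vesicles (SE 0.519, adjusted p = 0.161), -2.14 in Glutamate_secret (SE 0.514, adjusted p = 0.133) and -2.36 in Glutamate_BPC (SE 0.518, adjusted p = 0.295). Without Control library 1 these were -0.09 in Glutamate, -1.41 in Glutamate_vesicles, -1.16 in Glutamate_secret and -1.38 in Glutamate_BPC. Against Glutamate it was -1.32 in Glutamate_vesicles (SE 0.501), -1.06 in Glutamate_secret (SE 0.499) and -1.29 in Glutamate_BPC (SE 0.501), each with an adjusted p of 1 (edgeR). Over the 3 preparations it was -1.22 (SE 0.379, adjusted p = 1 in edgeR). That the level was lower than in the same-numbered Glutamate library in 3 of 3 pairs for each preparation follows from this lack of overlap with Glutamate. It adds no support of its own. Ordered by their means, Glutamate_vesicles, Glutamate_BPC and Glutamate_secret overlapped as neighbours, Glutamate_secret did not overlap Glutamate, and Glutamate, Memantine and Control overlapped.

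Bmp4, a BMP ligand that promotes astrocyte fate in neural progenitors, had its highest mean in Glutamate. Control measured 22.8, 25.5 and 23.2 CPM, and Glutamate 50.5, 41.3 and 59.3 CPM. Memantine had 12.4, 15.8 and 32.1 CPM. All 3 Glutamate libraries were above every Control and every Memantine library. The preparations had 40.5, 24.0 and 15.5 CPM (Glutamate_vesicles), 40.2, 21.5 and 19.0 CPM (Glutamate_secret) and 21.6, 16.8 and 19.7 CPM (Glutamate_BPC). All 9 were below the lowest Glutamate library, although library 1 of Glutamate_vesicles and of Glutamate_secret came within about 1 CPM of it.

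The log2 fold change of Bmp4 was 1.08 in Glutamate against Control (SE 0.419, adjusted p = 0.46 in edgeR). Against Glutamate it was -1.33 in Memantine (SE 0.421, adjusted p = 0.611 in edgeR). Without Memantine library 3 it was -1.84 and passed the edgeR test, with the lowest adjusted p of the fits leaving out 1 library (0.0479). The library left out was the Memantine library nearest to Glutamate, and the share of all genes called in that fit is not given here. Without Memantine library 1 the log2 fold change was -1.08, the smallest difference of the fits leaving out 1 library. In the preparations against Glutamate, the log2 fold change was -0.92 in Glutamate_vesicles (SE 0.417), -0.91 in Glutamate_secret (SE 0.418) and -1.38 in Glutamate_BPC (SE 0.422), each with an adjusted p of 1 (edgeR). Over the 3 preparations it was -1.07 (SE 0.32, adjusted p = 1 in edgeR). Glutamate_BPC also lay below Control without overlap, by a log2 fold change of -0.30 (SE 0.416, adjusted p = 0.844 in edgeR). Within each number, the Glutamate library exceeded the Control library by 1.14, 0.70 and 1.35 in log2 CPM.

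Tgfb1, the ligand best known from microglia and from injury responses, was measured at few counts (4 to 278 per library). It had its lowest mean in Control, with 1.14, 3.78 and 6.79 CPM, the first of these resting on 4 counts. Glutamate measured 6.97, 6.60 and 10.6 CPM, and Memantine 6.23, 2.78 and 12.2 CPM. The preparations had 8.08, 8.06 and 9.92 CPM (Glutamate_vesicles), 7.40, 10.2 and 5.43 CPM (Glutamate_secret) and 8.60, 16.0 and 25.5 CPM (Glutamate_BPC). Of the 12 libraries given glutamate without memantine, 10 were above the highest Control library, and the ranges of all neighbouring groups in the order of the means overlapped. The log2 fold change from Control was 1.27 over the 4 glutamate groups (SE 0.512, adjusted p = 0.206 in edgeR), 1.11 in Glutamate_vesicles (SE 0.598, adjusted p = 0.521) and 2.05 in Glutamate_BPC (SE 0.612, adjusted p = 0.296). Without Control library 3 these were 1.91, 1.74 and 2.68. Without Control library 1 the pooled value was 0.88 and that of Glutamate_vesicles 0.72. Without Glutamate_BPC library 3 the value of Glutamate_BPC was 1.62.

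Tgfb3, the third TGF-beta ligand, was measured at low levels, with 0.759 to 5.35 CPM and 4 to 110 counts per library. It lay above Control without overlap in Glutamate_vesicles (log2 fold change 1.00, SE 0.598, adjusted p = 0.585 in edgeR) and below Glutamate without overlap in Memantine (-0.54, SE 0.594, adjusted p = 0.999). No comparison gave Tgfb3 an unadjusted p below 0.05.

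Tgfbr1, the type I receptor for the 3 TGF-beta ligands, varied with the library number, and no comparison of groups gave it an unadjusted p below 0.05. Number 1 libraries had 1.40 to 3.71 CPM (median 1.98), number 2 libraries 6.04 to 35.4 CPM (median 25.5) and number 3 libraries 2.90 to 15.8 CPM (median 5.83). In 5 of 6 groups number 2 was the highest, and the exception was Control, with 3.71, 6.04 and 9.64 CPM. The F test for replicate numbers, with group in the model, called Tgfbr1 (adjusted p = 0.000994), Id3 (0.00243) and Ccn2 (0.0444), 3 of 9 members where 60.4% of all genes passed (edgeR). The F test over the 6 groups gave Tgfbr1 an adjusted p of 1 (edgeR). With the log2 ribosomal share as a covariate, 0 members were called for the number, where 0.472% of all genes were. Across the 18 libraries, log2 CPM of Tgfbr1 had a Pearson r of -0.73 with the log2 ribosomal share and of 0.87 with the summed oligodendrocyte lineage markers. Depth and ribosomal share differed between these libraries, and the part of either in the receptor's level was not tested.

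**Figure D3:**
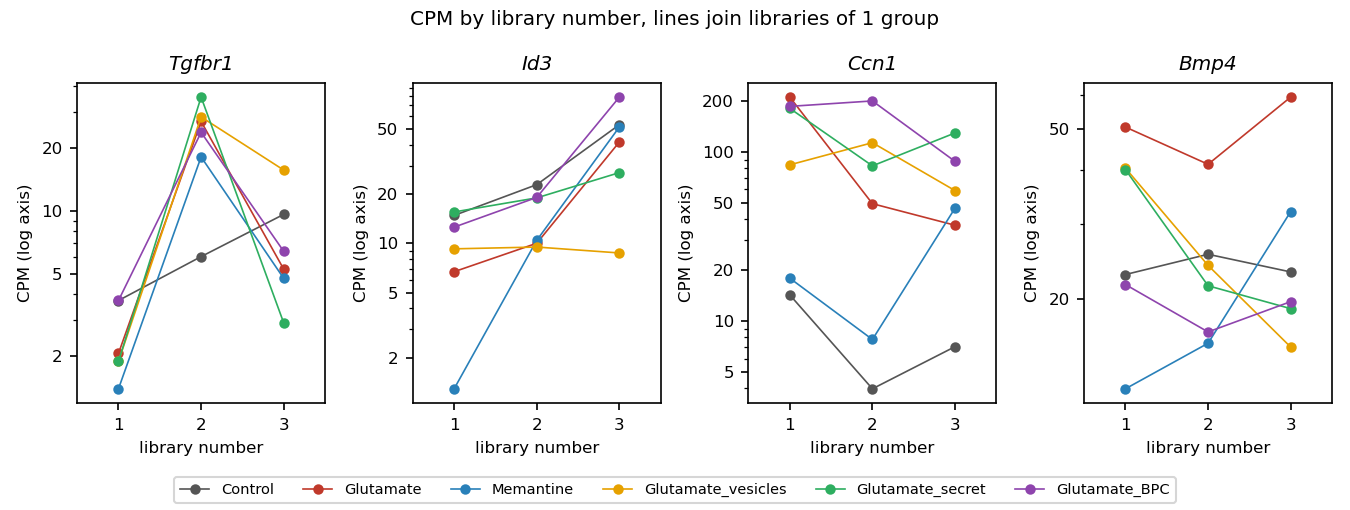
CPM (log axis) of Tgfbr1, Id3, Ccn1 and Bmp4 against the library number, with a line for each of the 6 groups. Tgfbr1 peaks at number 2 in 5 of 6 groups, whereas the lines of Ccn1 keep Control lowest at every number.

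Ccn1 and Ccn2 (also known as CYR61 and CTGF) encode secreted matricellular proteins that bind integrins. The 250 bases before their annotated start, from RefSeq on GRCr8, are shown because both genes carried the main difference and are known targets of Smad and TEAD factors. The Ccn1 stretch is chr2:237225690-237225939 and the Ccn2 stretch chr1:22624615-22624864, both on the minus strand and written 5′ to 3′ along the gene. Capitals mark GGAATG, the core of TEAD sites, and CAGAC, which holds the Smad-binding element, on either strand.
Ccn1: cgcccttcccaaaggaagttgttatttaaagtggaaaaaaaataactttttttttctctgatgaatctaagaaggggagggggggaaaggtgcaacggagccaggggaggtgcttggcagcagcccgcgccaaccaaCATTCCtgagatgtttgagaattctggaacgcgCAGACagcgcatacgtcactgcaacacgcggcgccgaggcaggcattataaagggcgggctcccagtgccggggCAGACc
Ccn2: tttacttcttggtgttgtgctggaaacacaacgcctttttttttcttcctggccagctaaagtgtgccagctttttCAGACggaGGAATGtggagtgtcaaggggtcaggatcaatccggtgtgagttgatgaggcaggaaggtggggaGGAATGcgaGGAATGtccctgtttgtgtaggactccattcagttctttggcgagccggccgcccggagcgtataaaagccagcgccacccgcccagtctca
Ccn1 held 1 match to the TEAD letters, 113 bases before the start, and Ccn2 held 3, at 166, 101 and 92 bases before it. Ccn1 held 2 matches to CAGAC and Ccn2 held 1. Among 33469 rat promoters of the same length, 12.1% held the TEAD letters and 42.9% held CAGAC. All 9 members matched an entry of the table. Of the other 7, Id3 held 1 match to the TEAD letters and Bmp4 2 matches to the Smad letters. A GC-rich Smad motif of BMP targets, GGCGCC, was present once in Ccn1 and once in Tgfbr1 (8.69% of promoters). The AP-1 letters TGANTCA (6.34%) and the CArG box (1.5%) were in none of the 9. The motifs searched do not overlap in these stretches, and a match is a description of letters only.

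Ccn1 was the member with the largest difference from Control. Control libraries measured 14.3, 3.98 and 7.06 CPM. Glutamate measured 211, 49.5 and 36.9 CPM, and Memantine 17.9, 7.78 and 46.6 CPM. Memantine libraries 1 and 2 were thus near Control, and library 3, the one with few neuron marker counts, lay between Glutamate libraries 2 and 3. The preparations had 83.9, 114 and 59.1 CPM (Glutamate_vesicles), 181, 82.8 and 130 CPM (Glutamate_secret) and 186, 200.4 and 88.0 CPM (Glutamate_BPC). All 12 libraries given glutamate without memantine exceeded the highest Control library, whereas none of the 9 preparation libraries lay outside the range of Glutamate.

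The pooled log2 fold change of Ccn1 from Control was 3.80 (SE 0.734, adjusted p = 0.0116, edgeR), and it was 3.44, 4.58 and 3.30 within numbers 1, 2 and 3. Without Control library 1 it was 4.38 (adjusted p = 0.021), without library 2 it was 3.46 (adjusted p = 0.0887) and without library 3 it was 3.70 (adjusted p = 0.0516). By group, the log2 fold change was 3.59 in Glutamate (SE 0.784, adjusted p = 0.261 in edgeR), 3.37 in Glutamate_vesicles (SE 0.776, adjusted p = 0.162), 3.99 in Glutamate_secret (SE 0.798, adjusted p = 0.126) and 4.26 in Glutamate_BPC (SE 0.807, adjusted p = 0.292). Without Glutamate library 1 the Glutamate value was 2.40. In Memantine against Glutamate it was -2.04 (SE 0.729, adjusted p = 0.634 in edgeR), -2.96 without Memantine library 3 (adjusted p = 0.0941) and -0.84 without Glutamate library 1 (adjusted p = 1).

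Ccn2 had its highest means in the preparations and its lowest in Memantine. Control measured 5.43, 6.23 and 4.42 CPM, and Memantine 3.76, 5.001 and 3.74 CPM. Glutamate spread from 26.99 and 12.3 CPM in libraries 1 and 2 to 4.09 CPM in library 3, which was below every Control library. The preparations had 31.9, 65.5 and 41.5 CPM (Glutamate_vesicles), 21.4, 41.5 and 19.4 CPM (Glutamate_secret) and 38.7, 113 and 21.6 CPM (Glutamate_BPC). Of the 12 libraries given glutamate without memantine, 11 exceeded the highest Control library, and 6 of the 9 preparation libraries exceeded the highest Glutamate library. Memantine library 3 had a low Ccn2 level like its group, unlike for Ccn1.

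The pooled log2 fold change of Ccn2 from Control was 2.58 (SE 0.594, adjusted p = 0.025, edgeR), with 2.39, 2.79 and 1.86 within the numbers. The adjusted p was 0.0864, 0.115 and 0.0976 without Control library 1, 2 or 3. By group, the log2 fold change was 1.43 in Glutamate (SE 0.639, adjusted p = 0.582 in edgeR), 3.11 in Glutamate_vesicles (SE 0.673, adjusted p = 0.161), 2.36 in Glutamate_secret (SE 0.655, adjusted p = 0.168) and 3.43 in Glutamate_BPC (SE 0.682, adjusted p = 0.295). It was 0.62 in Glutamate without Glutamate library 1 and 2.49 in Glutamate_BPC without Glutamate_BPC library 2. Against Glutamate it was -1.79 in Memantine (SE 0.643, adjusted p = 0.638 in edgeR, and -0.97 without Glutamate library 1), 1.68 in Glutamate_vesicles (SE 0.633, adjusted p = 1) and 2.00 in Glutamate_BPC (SE 0.639, adjusted p = 1). Without Glutamate library 1 the values were 2.50 in Glutamate_vesicles and 2.82 in Glutamate_BPC, and without Glutamate_BPC library 2 the value of Glutamate_BPC was 1.06. Over the 3 preparations it was 1.54 (SE 0.556, adjusted p = 1 in edgeR), with 0.14, 2.45 and 2.62 within numbers 1, 2 and 3, and it was 2.35 without Glutamate library 1. It was thus small within number 1, where the Glutamate library was high.

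Id1, an inhibitor of differentiation factors, had its lowest mean in Control and its highest in Glutamate_BPC. Control measured 16.3, 9.57 and 15.7 CPM and Glutamate 27.8, 11.2 and 26.0 CPM. Memantine was split, with 8.81 and 5.001 CPM in libraries 1 and 2 and 38.2 CPM in library 3. The preparations had 35.9, 22.5 and 24.2 CPM (Glutamate_vesicles), 38.3, 26.3 and 32.2 CPM (Glutamate_secret) and 39.2, 43.8 and 56.8 CPM (Glutamate_BPC), so that all 9 were above every Control library. The log2 fold change from Control was 1.16 over the 4 glutamate groups (SE 0.493, adjusted p = 0.24 in edgeR), 0.99 in Glutamate_vesicles (SE 0.579, adjusted p = 0.568), 1.22 in Glutamate_secret (SE 0.582, adjusted p = 0.432) and 1.76 in Glutamate_BPC (SE 0.589, adjusted p = 0.303). Glutamate_BPC was also above Glutamate without overlap (log2 fold change 1.11, SE 0.577, adjusted p = 1 in edgeR).

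Id3, a close relative of Id1, varied with the library number. It measured 1.29 to 15.6 CPM in number 1, 9.51 to 22.9 CPM in number 2 and 8.75 to 78.8 CPM in number 3. Number 3 was the highest in 5 of 6 groups. The exception was Glutamate_vesicles, with 9.27, 9.51 and 8.75 CPM, which lay below Control (14.9, 22.9 and 53.4 CPM) without overlap. That log2 fold change was -1.73 (SE 0.992, adjusted p = 0.559 in edgeR) and -1.04 without Control library 3. Glutamate_BPC library 3 had the highest level, at 78.8 CPM. Log2 CPM of Id3 had a Pearson r of 0.70 with the summed microglia markers across the 18 libraries, of 0.54 with the summed astrocyte markers and of 0.43 with Id1. The microglia sum was also highest in number 3 in every group but Control. Whether it goes with Id3 apart from the library number was not tested.

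Beyond the members, 58 of 72 listed genes of the pathway were tested. Over the 4 glutamate groups against Control, 1 of the 58 was called, and it fell. It was Ccn3, a further CCN family member that often opposes Ccn2, with a log2 fold change of -2.15 (SE 0.437, adjusted p = 0.0135, edgeR) from 2.77 to 0.627 CPM. At an unadjusted p below 0.05, 4 were higher and 4 lower, and these 8 of 58 were a smaller share than the 16.4% of all genes. The median log2 fold change of the 58 was 0.07 against 0.04 over all genes. Of the other TGF-beta targets, 3 of 5 were higher at an unadjusted p below 0.05, and the median of the 5 was 1.79. Pmepa1, a feedback inhibitor of Smad signalling, went from 34.3 to 179 CPM (log2 fold change 2.32, adjusted p = 0.163 in edgeR). Tagln, an actin-binding protein, went from 116 to 457 CPM (1.93, adjusted p = 0.176), and Col1a1, a fibrillar collagen chain, from 0.906 to 3.63 CPM (1.79, adjusted p = 0.174).

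Of the BMP targets outside the members, Id2, a further inhibitor of basic helix-loop-helix factors, went from 72.5 CPM in Control to 34.5 CPM over the 4 glutamate groups (log2 fold change -1.09, SE 0.303, adjusted p = 0.0577 in edgeR), and was the only 1 of 3 tested with an unadjusted p below 0.05. Of the other ligands, Gdf10 was lower at an unadjusted p below 0.05 (-1.85, adjusted p = 0.146), as 1 of 8. Of the extracellular antagonists, Grem1, a BMP antagonist, was lower (-2.23, adjusted p = 0.0932), as 1 of 8. Axl, a receptor tyrosine kinase and YAP target, was higher (0.99, adjusted p = 0.276), as 1 of 4 tested with Ccn3. Neither the 10 other receptors, the 6 Smads, the 6 intracellular inhibitors nor the 8 genes of latency and activation included one with an unadjusted p below 0.05. In Glutamate_vesicles against Control, where the numbers paired the libraries, the block, under which 3.74% of all genes were called, called Tagln (adjusted p = 0.0348), Col1a1 (0.0464) and Axl (0.0284) as higher and Id2 (0.0341) and Ccn3 (0.0284) as lower (edgeR). Without the block, 0 of the 58 were called in that comparison. Against Glutamate, 0 of the 58 had an unadjusted p below 0.05 in any preparation or in the 3 together, where 0.681% to 1.38% of all genes had one. In Memantine 3 of the 58 were higher at that threshold, where 5.08% of all genes passed it.

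**Figure D4:**
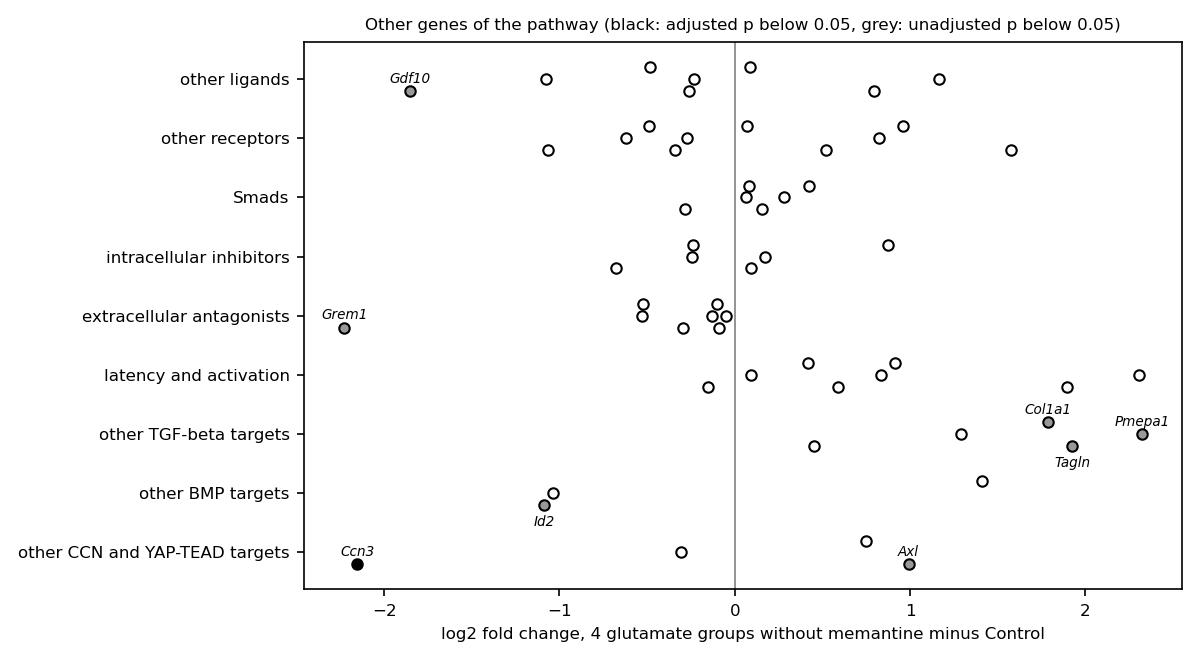
Log2 fold change of 58 further pathway genes in the 4 glutamate groups without memantine against Control, by list. Grey points (named) have an unadjusted p below 0.05 and the black point, Ccn3 at -2.15, an adjusted p below 0.05, whereas 3 of 5 other TGF-beta targets lie at 1.79 or above.

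Neuron markers moved with these differences. Over the 4 glutamate groups, 2 of 7 neuron markers were called lower than Control (3.96% of all genes were called). An unadjusted p below 0.05 was found for 6 of 7 (16.4% of all genes), with a median log2 fold change of -1.87. No tested marker of another list was called. At an unadjusted p below 0.05 were 0 of 6 astrocyte, 0 of 7 microglia, 1 of 5 oligodendrocyte lineage, 1 of 4 fibroblast and mural and 1 of 1 endothelial markers. Across the 18 libraries, log2 CPM of the members had a Pearson r with the log2 neuron marker sum of -0.82 for Ccn1, -0.82 for Id1, -0.71 for Tgfb1, -0.58 for Ccn2 and 0.71 for Tgfb2. These values rest on 18 points that share treatment and fall into a high and a low cluster, with Control and Memantine libraries 1 and 2 in the high one. With the astrocyte sum, r was 0.77 for Tgfb1, 0.72 for Id1, 0.57 for Ccn1, 0.54 for Id3 and -0.54 for Tgfb2. It was between -0.10 and 0.33 for the other members. Fibroblast and mural markers, 8 genes of which Col1a1 and Acta2 are also listed TGF-beta targets, summed to 3.71 to 11.4 CPM in Control, 5.81 to 12.8 CPM in Glutamate, 13.0 to 19.1 CPM in Glutamate_vesicles, 6.14 to 20.3 CPM in Glutamate_secret and 11.9 to 14.9 CPM in Glutamate_BPC. Rgs5 had counts in 2 libraries, Dcn in 6 and Lum in 8. Endothelial markers summed to at most 4.21 CPM. The part of any cell type in the members' levels was not tested.

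**Figure D5:**
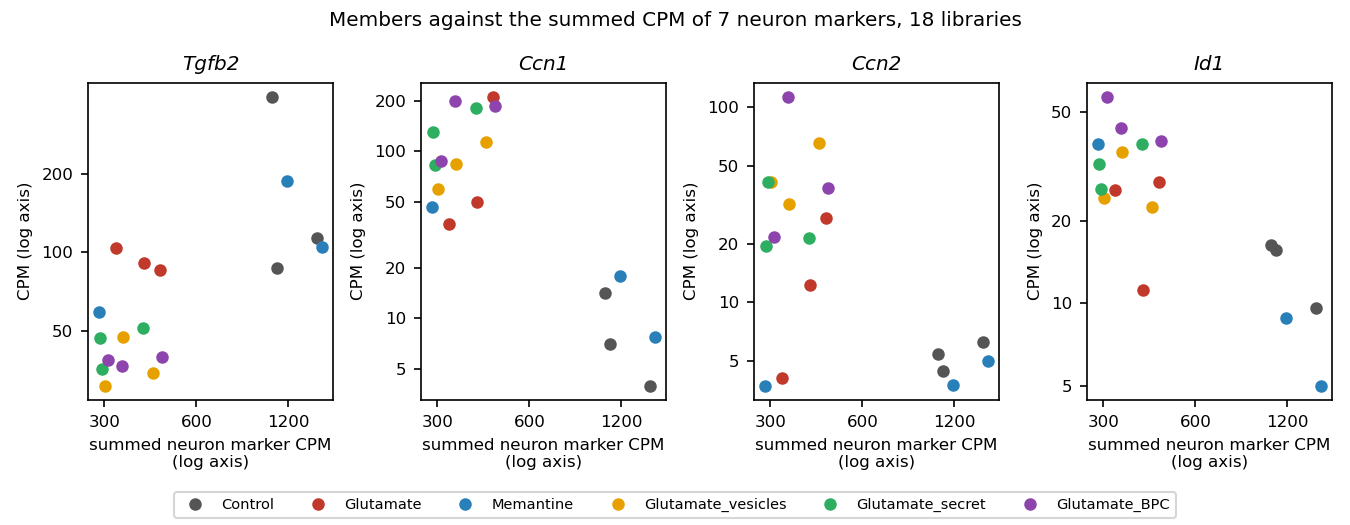
CPM of Tgfb2, Ccn1, Ccn2 and Id1 against the summed CPM of 7 neuron markers in the 18 libraries (both axes log), coloured by group. Memantine library 3, at 288 CPM of neuron markers, sits among the glutamate libraries for Ccn1 and Id1 but below them for Ccn2.

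Among the members themselves, log2 CPM of Ccn1 and Ccn2 had a Pearson r of 0.77 over the 18 libraries, and of 0.85 once the mean of each library number was removed. Ccn1 and Id1 had an r of 0.79, and Tgfb2 had negative values with Ccn2 (-0.76), Tgfb1 (-0.75) and Ccn1 (-0.66). Bmp4 had values between -0.24 and 0.25 with every other member. These libraries share treatment and library number, so that the values are given as a description.

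Of all tested genes, those whose log2 CPM was most like a member's over the 18 libraries were named by the highest Pearson r. Ccn1 was closest to Hbegf (0.92), a growth factor of the EGF family, and Junb (0.92), an AP-1 subunit. Ccn2 was closest to Adra1d (0.91), an adrenergic receptor, and Nrarp (0.84), a Notch-regulated protein. Tgfb2 was closest to Mycl (0.97) and to AABR07028615.1 (0.94). Tgfb1 was closest to Six5 (0.93) and to Grn (0.91), the gene of progranulin. Tgfbr1 was closest to Wls (0.97), which serves Wnt secretion, and Cdc73 (0.97). Id1 was closest to the cell cycle genes Cdk4 (0.94) and Cdk2ap1 (0.94). Id3 was closest to AABR07030823.1 (0.86) and Nog (0.86), the BMP antagonist noggin. Bmp4 (Prxl2a, 0.79, and Cisd2, 0.79) and Tgfb3 (LOC100359951, 0.74, and Slc5a6, 0.73) had the lowest values.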

How the data were processed

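The deposited values are expected counts (estimated read counts per gene), which the authors made by quantifying reads with Salmon against Ensembl rat transcripts and summing transcripts to genes. The submitters' processing notes name STAR, Salmon and the build rn6. Paper and labels differ on instrument and library kit. Counting is not stated to use strand, so reads of overlapping genes cannot be told apart. Counts were rounded and tested with edgeR 4.0.16 in R 4.3.3. filterByExpr (minimum count 10, minimum total 15) left 14398 of 31463 rows, sizes were scaled by TMM, 1 mean per group was fitted over all 18 libraries, and the quasi-likelihood test with Benjamini-Hochberg adjustment was two-sided at 0.05. The 78 ribosomal RNA rows stayed in. SE comes from the F statistic, and log2 CPM used a prior count of 2. No libraries of a group agreed within sampling noise.

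Groups and library numbers come from the labels. The numbers paired the libraries in 5 of 11 comparisons, where the deviations from the group means of same-numbered libraries correlated for every number (r 0.21 to 0.91). Elsewhere the lowest r was -0.45. The paired comparisons were Memantine, Glutamate_secret, Glutamate_BPC and the 3 preparations against Glutamate, and Glutamate_vesicles against Control.

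Members, lists and tests were chosen with earlier results of these data known. All members are described. A pathway gene is not reported here, and the list counts leave it out. A fold change is given where the unadjusted p was below 0.05 or the groups did not overlap, other pathway genes are named at an unadjusted p below 0.05 (at most 4 per list), and likeness by the 2 highest r. Alternatives were RLE scaling, no filter, the likelihood-ratio test used in the study, DESeq2 1.42.0, removal of ribosomal rows, the ribosomal share as a covariate, the replicate block, fits of 2 groups and leaving out each library. Scripts were tested on simulated data. Promoter sequences came from RefSeq (GRCr8), another build than that of the counts. Levels were not compared between genes, because transcript lengths were not used here.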

Additional observations from a re-analysis of the deposited data

How the results depend on the processing

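The direction of the 42 fold changes of members with an unadjusted p below 0.05 or groups without overlap was kept in each of 643 alternative values. The 42 were chosen from these same libraries, so the kept direction was largely fixed in advance and is no separate support. Their sizes moved. That of Tgfb2 in Glutamate against Control went from -1.075 to -0.093 without Control library 1. Fold changes of the other pathway genes were not recomputed. Counts of members at an adjusted p below 0.05 changed with the test, the covariate, the block and the libraries included. By DESeq2 they were 1 in Glutamate against Control, 3 in Glutamate_vesicles, 3 in Glutamate_secret and 4 in Glutamate_BPC against Control, 3 over the 6 groups and 5 for replicate numbers. The likelihood-ratio test gave 1, 3, 3, 3, 3 and 5 in that order, and the ribosomal share as a covariate 1, 2, 3, 3, 3 and 0. The replicate block gave 1, 3, 3, 4 and 3 for the first 5, where the quasi-likelihood test without it gave 0. Of all genes, DESeq2 called 1.61% to 4.99% in the first 5, the likelihood-ratio test 0.313% to 4.08%, the covariate 0.125% to 4.04% and the block 1.15% to 4.86%. For replicate numbers, DESeq2 called 67.8% of all genes, the likelihood-ratio test 65.3% and the covariate 0.472%. Of the first 5, only Glutamate_vesicles against Control was paired by its numbers, and the block changed no other call of a member in the paired comparisons. Over the 4 glutamate groups it also called Tgfb1 (adjusted p = 0.0444, edgeR), and it called 9 of the 58 other pathway genes in place of 1, where 12% of all genes were called, a choice made after seeing the data. Without Control library 1 that count remained 1.

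Glutamate_secret against Glutamate gave 0 members at an unadjusted p below 0.05 with RLE scaling (0.674% of all genes). It gave 1 without the filter (0.877%), in the fit of 2 groups (0.339%) and by DESeq2 (1.15%). In Memantine against Control, 1 passed without the filter (1.14% of all genes), by the likelihood-ratio test (1.4%) and by DESeq2 (2.2%). With the covariate (4.1%) and with the block (2.76%), 1 also passed. The block gave 5 in Glutamate_vesicles (19.8% of all genes) and 5 in Glutamate_secret (22.3%) against Control. The fit of 2 groups gave 5 in Glutamate_vesicles (11.5%) and 2 in Glutamate (6.07%) against Control.

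Leaving out 1 library at a time gave 1 to 3 adjusted calls over the 4 glutamate groups, 0 to 4 over the 6 groups (4 without Memantine library 3), 2 to 5 for replicate numbers, and 0 to 1 in Memantine against Glutamate. Counts at an unadjusted p below 0.05 ranged from 2 to 3 in Glutamate, 0 to 2 in Memantine and 3 to 5 over the 4 glutamate groups against Control, from 3 to 6 for replicate numbers, and from 1 to 4 in Memantine, 0 to 3 in Glutamate_vesicles, 0 to 2 in Glutamate_secret and 1 to 4 in Glutamate_BPC against Glutamate. The causes were not tested. Shares of all genes in these fits are not given here, so the counts are not read as particular to the members. Depth limits Tgfb1 and Tgfb3, which had as few as 4 counts in a library.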
